A study of Mus musculus with 10 samples.

Results

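The genes described here govern glucose output by the liver and its control by insulin. They are Igfbp1, the gluconeogenic enzyme genes G6pc, Pck1 and Fbp1, the regulator genes Foxo1 and Ppargc1a, the insulin receptor substrate genes Irs1 and Irs2, the pyruvate dehydrogenase kinase gene Pdk4 and the liver glycogen synthase gene Gys2. They were chosen by name for their place in fasting and insulin action, and probes were assigned to them through the RefSeq accession that the array design gives each probe. Of the 10 genes, 8 had a probe and all 8 were tested, among 26124 genes tested in all. No probe was matched to Pck1 or Irs2, and their expression is not analysed here.

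RNA from livers of male C57BL/6N mice carried the dye Cy5 and was hybridised to 10 2-colour Agilent arrays, each beside a Cy3-labelled common RNA (Ambion Mouse Assorted Total RNA, for which the labels also give liver as tissue). The groups were mice gavaged with 7 g/kg ethanol (3 arrays), mice gavaged with 5 g/kg ethanol (4 arrays) and mice gavaged with maltose carrying the calories of 5 g/kg ethanol (3 arrays). The labels used here give no age, no feeding state and no time between gavage and collection. Every group received calories, the maltose dose matches the calories of the lower ethanol dose only, and, as maltose is broken down to glucose, an effect of ethanol and an effect of lacking maltose cannot be told apart. Values are log2 ratios of liver over common RNA, so a level can be compared between arrays for a gene but not between genes. Median Cy5 intensity per array was 121 to 219 units over a background of 21 to 24 units, and 67.3% to 86.2% of spots stood well above background. All 10 of the 10 measured hepatocyte markers stood well above background on all 10 arrays. The labels number the replicates but do not say that each array is a separate mouse, so p-values measure the spread between arrays.

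In the fasted liver, glucagon acting through cAMP and the forkhead factor FOXO1 switches on the genes of gluconeogenesis, the making of new glucose. After a meal, insulin acts through the insulin receptor substrates IRS1 and IRS2 and the kinase AKT, which phosphorylates FOXO1 and sends it out of the nucleus, so that Igfbp1, Pck1, G6pc and Irs2 are repressed. Igfbp1, whose secreted protein binds insulin-like growth factors, is a widely used readout of this repression, while Gys2 serves the opposite branch, in which glucose is stored as glycogen.

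The promoters of Igfbp1, G6pc and Irs1 are shown because they hold the core of the insulin response element, the DNA element through which FOXO factors act on Igfbp1 and G6pc, while the expression of these genes differed in pattern. Each is the 250 bases before the annotated transcript start, written 5′ to 3′ on the strand of the gene, from RefSeq on GRCm38.p6. Capitals mark the element core CAAAACA or its reverse complement TGTTTTG. The Igfbp1 window is chr11:7197537-7197786 on the + strand, the G6pc window is chr11:101367466-101367715 on the + strand and the Irs1 window is chr1:82291440-82291689 on the − strand.
Igfbp1: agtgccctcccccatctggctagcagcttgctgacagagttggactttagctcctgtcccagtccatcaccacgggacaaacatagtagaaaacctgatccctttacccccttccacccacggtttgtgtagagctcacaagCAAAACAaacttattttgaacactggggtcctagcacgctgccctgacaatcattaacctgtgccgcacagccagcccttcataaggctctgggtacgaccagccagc
G6pc: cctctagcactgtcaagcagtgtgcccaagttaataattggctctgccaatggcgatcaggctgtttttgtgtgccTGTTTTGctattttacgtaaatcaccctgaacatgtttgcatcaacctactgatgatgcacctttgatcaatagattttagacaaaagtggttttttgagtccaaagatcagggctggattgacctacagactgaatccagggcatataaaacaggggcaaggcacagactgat
Irs1: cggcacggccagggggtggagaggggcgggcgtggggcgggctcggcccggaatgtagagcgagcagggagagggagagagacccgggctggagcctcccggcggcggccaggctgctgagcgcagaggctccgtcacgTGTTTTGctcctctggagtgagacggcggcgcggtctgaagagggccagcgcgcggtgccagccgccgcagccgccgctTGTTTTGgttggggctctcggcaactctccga
The core stood at −108 to −102 from the start in Igfbp1, at −174 to −168 on the opposite strand in G6pc, and at −111 to −105 and −32 to −26 on the opposite strand in Irs1.

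RefSeq promoters were matched for 9 of the 10 genes, Gys2 being the exception. Searched on both strands, CAAAACA was found in 4 of these 9 promoters, the fourth being Irs2 at −37 to −31, and in 5.56% of 32851 mouse promoters of the same length. The core of the cAMP response element, ACGTCA, was found in 2 of the 9, Pck1 at −91 to −86 and Ppargc1a at −50 to −45, and in 6.47% of all promoters. A core of the FOXO binding site, GTAAACA, was found in 0 of the 9 and in 3.17% of all promoters. Matches of different motifs did not overlap in these promoters. These matches are letters in a window and are not measured binding.

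**Figure D1:**
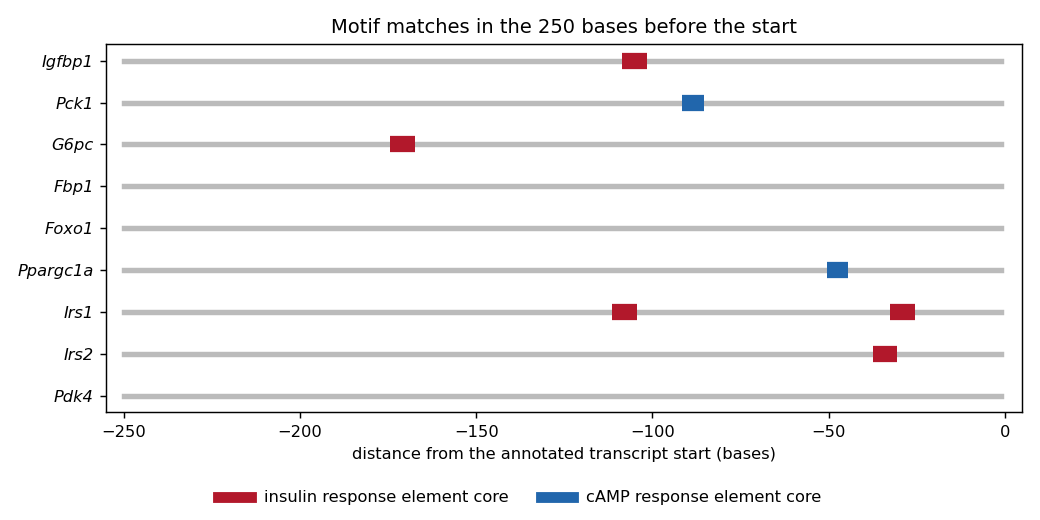
Positions of motif matches in the 250 bases before the annotated transcript start of 9 genes; the x axis is the distance from the start in bases, and coloured boxes mark the core of the insulin response element or of the cAMP response element on either strand. Igfbp1, G6pc and Irs2 hold 1 insulin response core each, Irs1 holds 2, and Pck1 and Ppargc1a hold 1 cAMP response core each.

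Igfbp1 was the member with the largest change. It rose at both ethanol doses, 8.16-fold at 7 g/kg and 3.41-fold at 5 g/kg, and its arrays fell into 3 separate levels by group. Gys2 fell at both doses, Pdk4 passed the test at 5 g/kg only, and the gluconeogenic enzyme genes G6pc and Fbp1 did not pass at either dose. With slide as a block G6pc passed at both doses, which made 3 of 8 members at 7 g/kg and 4 of 8 at 5 g/kg. The share of all genes passing with that block is not given here, so these counts cannot be set beside it. Without the block, 2 of 8 members passed against maltose at 7 g/kg, where 9% of all genes passed. At 5 g/kg 3 of 8 passed, where 3.77% of all genes passed. At 7 g/kg 1 member rose and 1 fell, against 4.67% and 4.33% of all genes, and at 5 g/kg 2 rose and 1 fell, against 2.21% and 1.56% of all genes. Between 7 g/kg and 5 g/kg, 0 of 8 passed, where 1.57% of all genes did; 1 member, Igfbp1, had an unadjusted p under 0.05 in limma in that comparison. A gene passed where its limma p, adjusted by Benjamini-Hochberg across the 26124 genes, was under 0.05. How many of all genes had an unadjusted p under 0.05 is not given here. Counts of genes with such a p, here and below, therefore cannot be judged against it. The median log2 change of the 8 members was −0.13 at 7 g/kg and 0.02 at 5 g/kg, beside 0.012 and 0.0026 over all genes, and 4 of the 8 changes were above 0 at each dose. Arrays of the 2 groups compared did not overlap for 3 of 8 members at 7 g/kg, against 25.4% of all genes, for 4 of 8 at 5 g/kg, against 16.9%, and for 1 of 8 between the doses, against 11%.

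**Figure D2:**
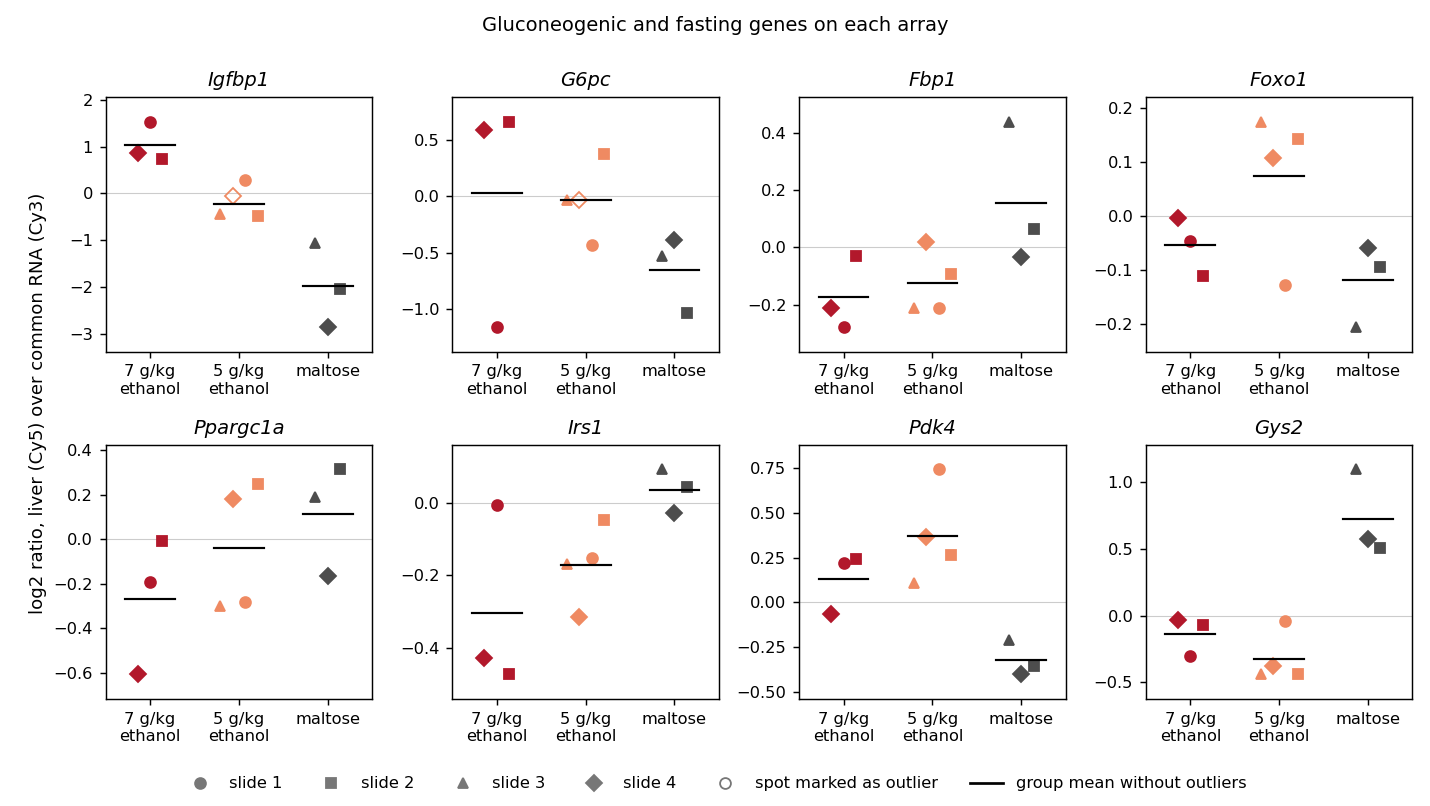
Log2 ratio of liver (Cy5) over common RNA (Cy3) on each array for the 8 measured genes, with 7 g/kg ethanol, 5 g/kg ethanol and maltose from left to right; the marker shape gives the slide, open markers are spots the scanner software marked as outliers, and bars are group means without those spots. Igfbp1 forms 3 separate levels, all ethanol arrays lie above maltose for Pdk4 and below it for Gys2, and each panel has its own y axis.

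Igfbp1 had log2 ratios of 0.86, 1.53 and 0.74 at 7 g/kg, of −0.45, 0.29 and −0.49 at 5 g/kg, and of −1.06, −2.86 and −2.04 with maltose. Every 7 g/kg array was above every 5 g/kg array, and every 5 g/kg array above every maltose array. The spot of 5 g/kg replicate 2 was marked as an outlier by the scanner software and left out; its value would have been −0.05, within the range of its group. Means were 1.04 ± 0.43 at 7 g/kg, −0.22 ± 0.44 at 5 g/kg and −1.98 ± 0.90 with maltose (SD, n = 3 each), so the maltose arrays were the most spread. In background-uncorrected Cy5 intensity the spot measured 55652 to 79569.5 units at 7 g/kg and 2320 to 22185 units with maltose.

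The log2 change of Igfbp1 against maltose was 3.03 (SE 0.36, 95% interval 2.26 to 3.8, limma adjusted p = 0.000153) at 7 g/kg and 1.77 (SE 0.36, 95% interval 1.00 to 2.54, limma adjusted p = 0.0145) at 5 g/kg. At 7 g/kg the call held under every alternative run. At 5 g/kg it was lost without maltose replicate 3 (1.74, limma adjusted p = 0.0571), without 5 g/kg replicate 3 (1.52, limma adjusted p = 0.0615), with the scanner's own ratio (1.69, limma adjusted p = 0.0882) and with Cy5 alone (1.64, limma adjusted p = 0.178). Between the doses the log2 change was 1.26 (95% interval 0.49 to 2.03, 2.40-fold) and did not pass (limma adjusted p = 0.133). That comparison passed with slide as a block (1.61, SE 0.24, limma adjusted p = 0.0111), with only those 2 groups in the fit (limma adjusted p = 0.0291) and without maltose replicate 1 (limma adjusted p = 0.0357). Differences between arrays on the same slide were 2.77 and 3.72 for 7 g/kg minus maltose, 0.61 and 1.55 for 5 g/kg minus maltose, and 1.23 and 1.24 for 7 g/kg minus 5 g/kg.

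Marker genes of liver cells also differed between these groups. The mean log2 ratio of 10 hepatocyte markers was 0.501 to 0.816 per array at 7 g/kg and 0.551 to 0.79 at 5 g/kg, against 0.079 to 0.241 with maltose. The mean of 10 endothelial markers was −0.0487 to 0.0161 at 7 g/kg and −0.133 to 0.00674 at 5 g/kg, against −0.444 to −0.255 with maltose. Of the hepatocyte markers 5 rose and 1 fell at 7 g/kg, and 2 rose and 0 fell at 5 g/kg. Of the endothelial markers 3 rose at 7 g/kg and 2 at 5 g/kg, and none fell. The shifts were uneven. Fgb changed by 2.64 at 7 g/kg and 1.24 at 5 g/kg, and Ahsg by 1.096 and 1.23. The other hepatocyte markers changed by −0.47 to 0.715 at 7 g/kg and by −0.04 to 0.593 at 5 g/kg. Lyve1 changed by 1.72 at 7 g/kg and 1.29 at 5 g/kg. The other endothelial markers changed by −0.28 to 0.675 at 7 g/kg and by −0.02 to 0.59 at 5 g/kg. Under the slide block 3 hepatocyte markers rose and 1 fell at 7 g/kg and 1 rose at 5 g/kg, and 2 endothelial markers rose at 7 g/kg and 1 at 5 g/kg. Stellate cell markers (9 genes) averaged 0.0841 to 0.123 at 7 g/kg and 0.0752 to 0.189 at 5 g/kg, against −0.203 to −0.02 with maltose, and lymphocyte markers (9 genes) averaged −0.131 to 0.0514 at 7 g/kg and −0.194 to 0.0408 at 5 g/kg, against −0.368 to −0.214 with maltose. Neutrophil markers (9 genes) lay above maltose at 7 g/kg, at 0.167 to 0.273 against −0.181 to −0.118, and overlapped it at 5 g/kg. Only 2 of them passed at 7 g/kg, S100a8 (1.28) and S100a9 (1.41), and the other neutrophil markers changed by −0.13 to 0.29. S100a8 stood well above background on 0 of the 3 maltose arrays, so its value is less certain. Adipocyte markers (8 genes) lay above maltose at 5 g/kg, at −0.0572 to −0.00826 against −0.321 to −0.14, and overlapped it at 7 g/kg, at −0.26 to −0.0408. At 5 g/kg 0 of them passed in limma (2 had an unadjusted p under 0.05), and 1 rose at 7 g/kg. Cidec changed by 1.01 and Fabp4 by 0.57 at 5 g/kg, and the other adipocyte markers by −0.09 to 0.24. The Fabp4 probe used had no value on 5 g/kg replicates 1 and 4 and maltose replicate 3. A second Fabp4 probe gave 1.73 at 5 g/kg and 1.94 at 7 g/kg. Exocrine pancreas markers (7 genes) averaged −0.154 to −0.0381 at 7 g/kg, −0.168 to −0.0691 at 5 g/kg and −0.111 to 0.0127 with maltose, so their arrays overlapped. Array means of 8 Kupffer cell markers overlapped between the groups, and 0 of them passed in limma at either dose (1 at 7 g/kg and 0 at 5 g/kg had an unadjusted p under 0.05). In whole liver, fewer cells of a type, less RNA per cell and a change in the marker genes themselves cannot be told apart. The part of these marker differences in the members' changes was not tested.

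G6pc, whose enzyme releases free glucose in the last step of gluconeogenesis, shares the response element with Igfbp1 but was not separated by group. It had log2 ratios of 0.59, −1.16 and 0.66 at 7 g/kg, of −0.03, −0.43 and 0.38 at 5 g/kg, and of −0.53, −0.38 and −1.04 with maltose. The 7 g/kg arrays held both the highest values and the lowest value of the series. The changes against maltose were 0.68 (95% interval −0.14 to 1.5, limma adjusted p = 0.365) at 7 g/kg and 0.62 (95% interval −0.20 to 1.44, limma adjusted p = 0.498) at 5 g/kg, intervals that reach from slightly lower to more than 1 log2 unit higher. The change between the doses was 0.06 (95% interval −0.76 to 0.88).

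The calls of G6pc depended on slide. The low arrays, 7 g/kg replicate 2 and 5 g/kg replicate 3, were the 2 arrays of slide 1, which holds no maltose array, and the same 2 arrays were the highest of their groups for Igfbp1. With slide as a block, G6pc passed at 7 g/kg (1.02, SE 0.26, limma adjusted p = 0.0406) and at 5 g/kg (1.1, SE 0.22, limma adjusted p = 0.0277). Within slides, G6pc differed by 0.97 and 1.70 between 7 g/kg and maltose and by 0.497 and 1.42 between 5 g/kg and maltose. Leaving out 1 array moved the 7 g/kg change over 0.364 to 1.28: it was 1.28 without 7 g/kg replicate 2 (limma adjusted p = 0.00441), 0.402 without replicate 1 (limma adjusted p = 0.673) and 0.364 without replicate 3 (limma adjusted p = 0.716). At 5 g/kg it ranged from 0.419 to 0.822 and passed in none of these fits (limma adjusted p from 0.119 to 0.742). A spot of G6pc marked as an outlier, on 5 g/kg replicate 2, was left out.

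Fbp1 encodes the enzyme that removes a phosphate from fructose 1,6-bisphosphate on the way to glucose. Its log2 ratios were −0.21, −0.28 and −0.03 at 7 g/kg, −0.21, 0.02, −0.21 and −0.09 at 5 g/kg, and 0.44, −0.03 and 0.06 with maltose. The groups overlapped, and only maltose replicate 1 stood clearly above the ethanol arrays. The changes were −0.33 (95% interval −0.61 to −0.05, limma adjusted p = 0.16) at 7 g/kg and −0.28 (95% interval −0.54 to −0.02, limma adjusted p = 0.279) at 5 g/kg. Without maltose replicate 1 they were −0.189 (limma adjusted p = 0.547) and −0.14 (limma adjusted p = 0.764). Within slides the difference for 5 g/kg minus maltose ranged from −0.651 to 0.051.

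**Figure D3:**
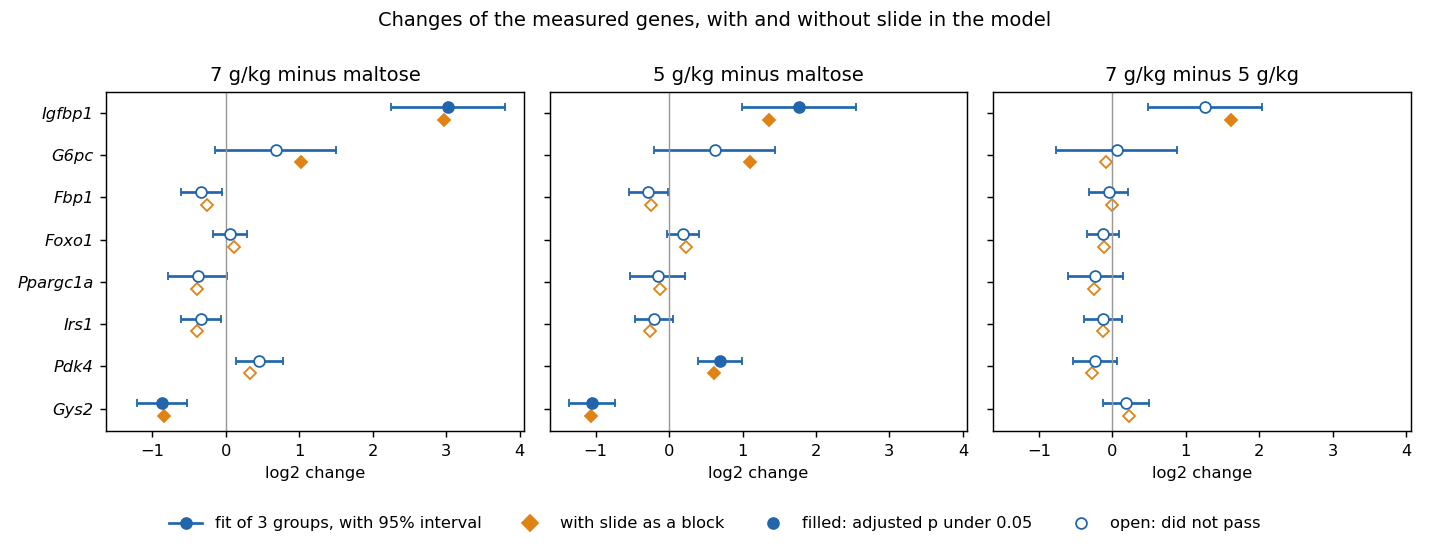
Log2 changes of the 8 measured genes in the 3 comparisons, with 95% intervals from the fit of 3 groups (circles) and the values with slide as a block (diamonds); filled symbols have an adjusted p under 0.05. Igfbp1 lies at 3.03, 1.77 and 1.26, and G6pc is filled against maltose only with slide as a block.

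Neither regulator of the programme passed at either dose. Foxo1, the insulin-controlled transcription factor, had log2 ratios of −0.0038, −0.05 and −0.11 at 7 g/kg, of 0.18, 0.11, −0.13 and 0.14 at 5 g/kg, and of −0.20, −0.06 and −0.09 with maltose. Its changes were 0.07 (95% interval −0.17 to 0.30, limma adjusted p = 0.83) at 7 g/kg and 0.19 (95% interval −0.02 to 0.41, limma adjusted p = 0.397) at 5 g/kg, and a second Foxo1 probe gave 0.10 and 0.13. These intervals do not reach 1 log2 unit, and FOXO1 protein and its place in the cell were not measured.

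Ppargc1a, which encodes the coactivator PGC-1α that fasting induces, had log2 ratios of −0.61, −0.19 and −0.0067 at 7 g/kg, of −0.30, 0.18, −0.28 and 0.25 at 5 g/kg, and of 0.19, −0.17 and 0.31 with maltose. The groups overlapped at both doses. Its changes were −0.38 (95% interval −0.78 to 0.02, limma adjusted p = 0.277) at 7 g/kg and −0.15 (95% interval −0.53 to 0.22, limma adjusted p = 0.765) at 5 g/kg. Within slides the difference for 5 g/kg minus maltose ranged from −0.49 to 0.345.

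Irs1, the docking protein that passes the signal on from the insulin receptor, had log2 ratios of −0.43, −0.0074 and −0.47 at 7 g/kg, of −0.17, −0.31, −0.15 and −0.05 at 5 g/kg, and of 0.09, −0.03 and 0.04 with maltose. All 5 g/kg arrays lay below all maltose arrays, while 1 of the 3 arrays at 7 g/kg lay within the maltose range. The changes were −0.34 (95% interval −0.61 to −0.06, limma adjusted p = 0.134) at 7 g/kg and −0.21 (95% interval −0.46 to 0.05, limma adjusted p = 0.462) at 5 g/kg. Without 7 g/kg replicate 2, the array in the maltose range, the 7 g/kg change was −0.49 and passed (limma adjusted p = 0.024). The spot was dim, at 126.5 to 224.5 units of Cy5.

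Pdk4 encodes the kinase that shuts off pyruvate dehydrogenase and so spares pyruvate in fasting. Its log2 ratios were −0.07, 0.22 and 0.24 at 7 g/kg, 0.11, 0.36, 0.74 and 0.26 at 5 g/kg, and −0.21, −0.40 and −0.36 with maltose. Every ethanol array lay above every maltose array. It rose at 5 g/kg by 0.69 (SE 0.14, 1.62-fold, limma adjusted p = 0.0122), and by 1.29 in both the scanner's own ratio and the series table. At 7 g/kg the change was 0.45 (95% interval 0.14 to 0.77, limma adjusted p = 0.0779), and the difference between 7 g/kg and 5 g/kg was −0.24 (95% interval −0.54 to 0.06, limma adjusted p = 0.611). The call at 5 g/kg was lost without maltose replicate 2 or without maltose replicate 3 (limma adjusted p = 0.0555 for either) and with Cy5 alone, and the 7 g/kg change passed without 5 g/kg replicate 3 (limma adjusted p = 0.0293). Pdk4 was the dimmest member, at 60 to 253 units of Cy5, and stood well above background on 9 of 10 arrays.

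Gys2 makes the glucose polymer of liver glycogen. Its log2 ratios were −0.04, −0.31 and −0.07 at 7 g/kg, −0.44, −0.38, −0.04 and −0.43 at 5 g/kg, and 1.1, 0.58 and 0.50 with maltose. Every ethanol array lay below every maltose array. It fell by 0.86 on the log2 scale at 7 g/kg (SE 0.16, 1.82-fold lower, limma adjusted p = 0.00301) and by 1.05 at 5 g/kg (SE 0.15, 2.07-fold lower, limma adjusted p = 0.0012). The difference between 7 g/kg and 5 g/kg was 0.19 (95% interval −0.13 to 0.50, limma adjusted p = 0.748), so no dependence on dose was detected. Within slides the difference was −0.612 and −0.575 for 7 g/kg minus maltose and −1.54 to −0.937 for 5 g/kg minus maltose. Of the alternatives run, only Cy5 alone ended these calls.

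**Figure D4:**
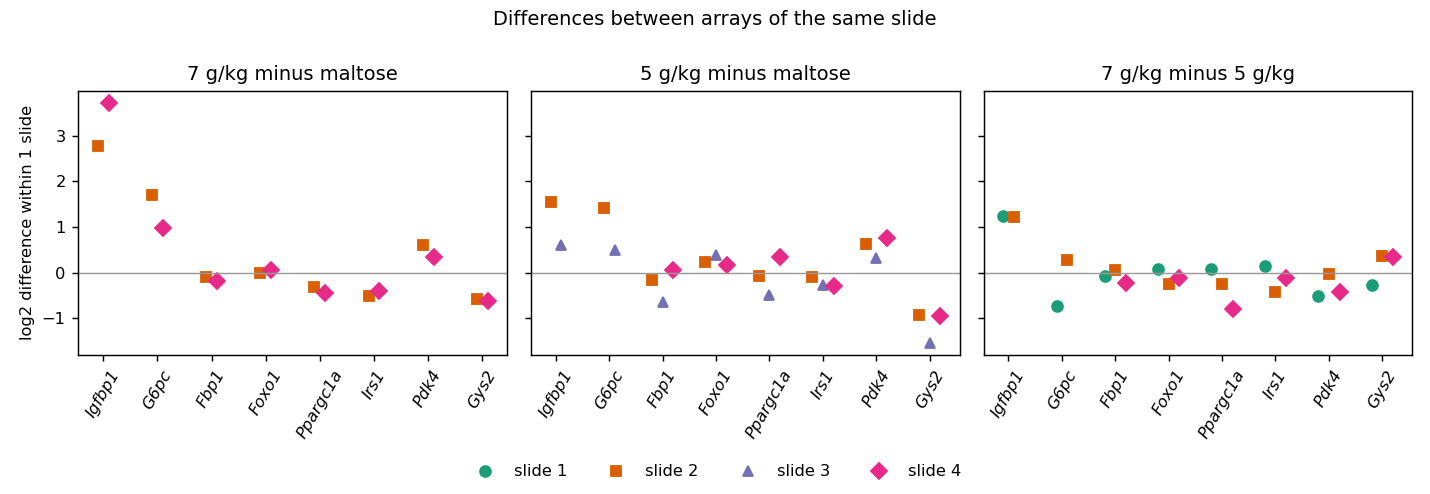
Log2 differences between arrays of the same slide for the 8 measured genes in the 3 comparisons; each marker is 1 slide that holds both groups. Igfbp1, G6pc and Pdk4 are above 0 and Irs1 and Gys2 below 0 on every slide for both doses minus maltose. For 7 g/kg minus 5 g/kg, Igfbp1 is 1.23 and 1.24.

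Genes whose array pattern was most like that of Igfbp1, among 1417 named genes that varied over the arrays, were the immediate early gene Egr1 (Pearson r = 0.948), the stress-induced inhibitor of mTORC1 Ddit4 (r = 0.941) and the acute phase gene Orm1 (r = 0.939). Those most like G6pc were Dapk2 (r = 0.854), Itprid2 (r = 0.804) and AW209491 (r = 0.782). Each r is over the 9 arrays on which the member was measured and describes these arrays only, since the points share the group differences and the slides. Egr1 averaged 0.80 at 7 g/kg, −1.18 at 5 g/kg and −2.44 with maltose. Igfbp1 shares this order, and the choice of Egr1 by its likeness to Igfbp1 favours such sharing.

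The other genes of glucose output were set beside the members. Of 19 tested genes of gluconeogenesis and glucose transport, 3 rose and 3 fell at 7 g/kg, with a median log2 change of −0.06, and 0 passed at 5 g/kg in limma (5 had an unadjusted p under 0.05), with a median of −0.04. Gpi1 (1.62), which serves both gluconeogenesis and glycolysis, and the monocarboxylate carrier gene Slc16a1 (0.96) rose at 7 g/kg. Gk, encoding the glycerol kinase that feeds glycerol into glucose, fell by 1.56 on the log2 scale at 7 g/kg. That probe had values on 2 arrays of each group, and its other probes gave −1.43 and −1.12. With slide as a block 5 of these genes rose and 3 fell at 7 g/kg, and 1 rose at 5 g/kg.

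Among 22 tested regulators of the cAMP, glucagon and FOXO pathways, 1 rose and 4 fell at 7 g/kg, and 0 rose and 1 fell at 5 g/kg. The slide block left 2 in place of 4 lower at 7 g/kg. Klf15, a fasting-induced factor that favours amino acid use for glucose, fell by 0.81 at 7 g/kg and by 0.62 at 5 g/kg on the log2 scale. Cebpa, a hepatocyte factor with targets among gluconeogenic genes, fell by 0.79 at 7 g/kg. The glucagon receptor gene Gcgr fell by 0.43 at 7 g/kg, a call lost with slide as a block (limma adjusted p = 0.0603). Crem, whose products include a repressor of the cAMP response, rose by 0.56 at 7 g/kg on its brightest probe, while its other 4 probes gave 0.13 to 0.26.

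Insulin signalling below the receptor held 20 tested genes, of which 2 rose and 1 fell at 7 g/kg and 0 passed at 5 g/kg in limma (8 had an unadjusted p under 0.05). Socs3 (0.93), a feedback inhibitor of cytokine and insulin signals, and the phosphatase gene Ptpn1 (0.45) rose, and the AKT inhibitor gene Trib3 fell by 0.45 on the log2 scale. The calls of Socs3 (limma adjusted p = 0.0568) and Trib3 (limma adjusted p = 0.0705) were lost with slide as a block. At 7 g/kg a second Trib3 probe gave −0.797 and a second Ptpn1 probe gave 0.31.

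Other genes that insulin represses or FOXO1 activates did not follow Igfbp1 as a group. Of 18 tested, 4 rose and 3 fell at 7 g/kg with a median of 0.11, and 2 rose and 2 fell at 5 g/kg with a median of 0.14. With slide as a block 2 rose and 2 fell at 7 g/kg, and 2 rose and 1 fell at 5 g/kg. Insig2, an insulin-repressed brake on sterol synthesis in liver, rose by 2.14 at 7 g/kg, where 2 arrays had a value, and by 2.45 at 5 g/kg. Cyp7a1, the rate-limiting enzyme gene of bile acid synthesis, fell by 3.08 at 7 g/kg and by 1.61 at 5 g/kg on the log2 scale. Its probe stood well above background on 2 of the 3 arrays at 7 g/kg, so the first of these values is less certain. Igfbp2, a binding protein that stands in this list and in that of the insulin-like growth factor system, fell by 1.73 at 7 g/kg and by 0.71 at 5 g/kg, the opposite direction to Igfbp1. Its 5 g/kg call was lost with slide as a block (limma adjusted p = 0.0584).

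Several genes that insulin induces rose with ethanol as well. Of 9 tested, 6 rose and 0 fell at 7 g/kg with a median of 1.69, and 3 rose and 0 fell at 5 g/kg with a median of 0.20. Between 7 g/kg and 5 g/kg, 4 of 9 rose, with a median of 0.50. The lipogenic genes Thrsp (4.70 at 7 g/kg and 1.94 at 5 g/kg) and Fasn (3.38 and 1.73) rose at both doses, and a second Fasn probe gave 2.59 at 7 g/kg and 0.719 at 5 g/kg. Pklr (2.20), a glycolytic gene, and Me1 (1.69) rose at 7 g/kg.

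Glycogen genes beside Gys2 were divided. Of 16 tested, 2 rose and 5 fell at 7 g/kg, and 2 rose and 2 fell at 5 g/kg. Blocking on slide, 2 rose and 3 fell at 7 g/kg, and 3 rose and 2 fell at 5 g/kg. Pygl, the liver phosphorylase that breaks glycogen down, rose by 1.30 at 7 g/kg and 0.63 at 5 g/kg, and so did the branching enzyme gene Gbe1 (0.96 and 0.49). Phka2, a regulatory subunit of phosphorylase kinase, fell by 0.95 at 7 g/kg and by 0.66 at 5 g/kg, and the phosphoglucomutase gene Pgm1 fell by 0.62 and by 0.43 on the log2 scale. Pygl was also higher at 7 g/kg than at 5 g/kg (0.66, limma adjusted p = 0.01313).

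Around Pdk4, 2 of 8 tested genes of pyruvate dehydrogenase and its regulators rose at 7 g/kg and 0 passed at 5 g/kg in limma (3 had an unadjusted p under 0.05). They were the subunit genes Pdhb (1.39, with values on 2 arrays at 7 g/kg) and Dlat (0.76), and a second Dlat probe gave −0.00645 at 7 g/kg. Around Igfbp1, 1 of 7 tested genes of the insulin-like growth factor system rose and 3 fell at 7 g/kg, and 1 rose and 2 fell at 5 g/kg. Under the slide block 0 rose and 2 fell at 7 g/kg, and 0 rose and 1 fell at 5 g/kg. Igfals, encoding the partner that stabilises circulating insulin-like growth factors, fell by 1.19 at 7 g/kg and by 1.02 at 5 g/kg on the log2 scale.

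**Figure D5:**
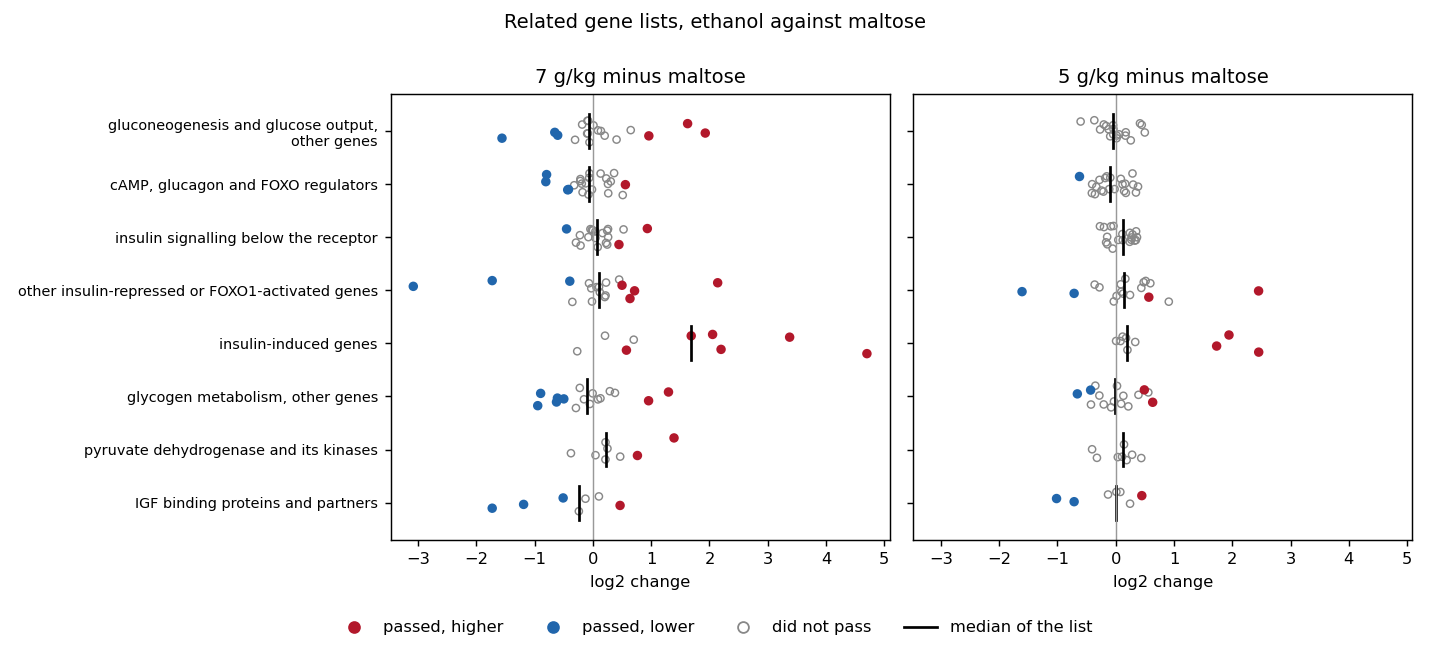
Log2 changes of tested genes in 8 related lists for 7 g/kg minus maltose and 5 g/kg minus maltose; each circle is a gene, filled where the adjusted p was under 0.05, and black bars are list medians. Insulin-induced genes have a median of 1.69 at 7 g/kg and 0.20 at 5 g/kg, and the other lists have medians between −0.24 and 0.23.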

How the data were processed

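Liver RNA of 10 arrays in 3 groups was measured in Cy5 beside a common RNA in Cy3. The scanner software, Agilent Feature Extraction 11.5.1.1 per the file headers, gave the deposited median intensity of each spot and channel and, as a deposited value, the log10 of Cy5 over Cy3, background subtracted and dye normalized. The deposited series table holds log2 ratios, a scale read from its slope of 3.32 to 3.34 on the log10 ratio, with column medians from −0.0734 to 0.076. What the authors did between the scanner ratio and this table, and whether it was centred, is not given in the sources used here.

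From the median intensities, R 4.3.3 with limma 3.58.1 computed log2 ratios by normexp background correction (offset 50) and loess within each array. Control spots and spots marked as outliers (2.42% to 5.83% per array) were left out, no spot was saturated, and spots of a probe were averaged. Of 41174 probes, 33943 stood well above background in Cy5 on at least 3 arrays. Genes needed at least 2 values in every group and were read from their brightest probe, which left 26124 genes. Symbols came from RefSeq (GRCm38.p6) by accession for 24375 probes (59.2%). The array design was built on another assembly, so no probe coordinates are given.

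A single limma fit of 3 group means over all genes gave the 3 comparisons, two-sided, with Benjamini-Hochberg adjustment over all genes tested. The files show 4 slides, each holding more than 1 group, so slide as a block and differences within slides were also computed. Other alternatives changed background correction, normalization, channel, source of the values, filters, probe choice, empirical Bayes settings, array weights, the replicate block and the threshold, or left out an array. The precision is limited by 3 or 4 arrays a group. The limma fit was tried on simulated log2 ratios for 7 g/kg minus maltose over 26124 genes, with 50 genes given each size of change. It recovered 32% of genes given a log2 change of 0.5, 90% at 1, 98% at 2 and 100% at 3, with 6 false calls among 25924 genes. The simulation held no slide effect and fewer changed genes than passed in the data. Background correction, loess and probe choice were not part of it.

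The members and the lists were chosen with earlier results of these data known. Named beside the members were up to 4 genes of each related list with the smallest p among those passing against maltose, the marker with the smallest p of each cell type, and the 3 genes most correlated with Igfbp1 and with G6pc. The last were meant to be taken over 10 arrays and were taken over the 9 arrays with a value. A gene chosen by this rule is not reported here.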

Additional observations from a re-analysis of the deposited data

Results flagged for a closer look

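Gys2 was singled out because 1 array of its 5 g/kg ethanol group lay far from the other 3. Replicate 3 had a log2 ratio of −0.0409, while the other arrays of that group had −0.441 to −0.377, a gap of 0.84 of the whole range of the group. It was still below every maltose array. The search covered 37 genes in the 4 arrays of that group and found this 1 case, and chance picks out about 1 in 20 groups.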

How the results depend on the processing

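Dim spots (Pdk4, Irs1), 3 or 4 arrays a group and calories matched for 5 g/kg only limit these results. The genes passing were 2350 for 7 g/kg minus maltose, 985 for 5 g/kg minus maltose and 410 for 7 g/kg minus 5 g/kg; the causes of the shifts below were not tested. Cy5 alone gave 591, 117 and 46 genes in that order, and an adjusted p under 0.01 gave 1176, 378 and 142. For 5 g/kg minus maltose the scanner ratio gave 515 genes and the series table gave 577, and for 7 g/kg minus 5 g/kg they gave 116 and 137. Leaving out an array gave 1495 to 2343 genes for 7 g/kg minus maltose (lowest without maltose replicate 1), 464 to 1053 for 5 g/kg minus maltose (464, 632 and 501 without maltose replicate 1, 2 and 3) and 222 to 429 for 7 g/kg minus 5 g/kg (222 and 232 without 7 g/kg replicate 1 and 2, 258 and 232 without 5 g/kg replicate 1 and 2). Median centring in place of loess gave 67%, 75.2% and 52.4% of calls as higher, beside 51.9%, 58.7% and 42.2% with loess, and Cy5 alone gave 67.4% for 7 g/kg minus 5 g/kg; no member reversed against maltose under either. Of the members, 2 passed at 7 g/kg, 3 at 5 g/kg and 0 between the doses. Cy5 alone gave 1 at 7 g/kg and 0 at 5 g/kg, and a threshold of 0.01 gave 1 at 5 g/kg. Slide as a block gave 3 at 7 g/kg, 4 at 5 g/kg and 1 between the doses. A fit of only the 7 g/kg and 5 g/kg groups gave 1 between the doses. How many of all genes passed with slide as a block or in that fit is not given here. Without 1 array, 2 to 4 members passed at 7 g/kg (4 without 7 g/kg replicate 2), 1 to 3 at 5 g/kg (1 without maltose replicate 3) and 0 to 1 between the doses (1 without maltose replicate 1). The replicate numbers did not pair the arrays (correlations of deviations from −0.207 to 0.203), and the replicate block gave 2318, 934 and 289 genes, and 2, 3 and 0 members; it moved G6pc at 5 g/kg to 0.188 (limma adjusted p = 0.885), beside 0.62, and changed no member's call. Among the fits, reversals occurred only between 7 g/kg and 5 g/kg, for genes near 0. Within single slides, the sign also differed from the main fit against maltose for members that did not pass. These were Ppargc1a (0.345) and Fbp1 (0.051) at 5 g/kg on slide 4 and Foxo1 (−0.0171) at 7 g/kg on slide 2. Between the doses it differed for further members, such as Irs1 (0.146) and Gys2 (−0.265) on slide 1. In the fits between the doses G6pc, at 0.06, was −0.00413 with the series table, −0.0817 with slide as a block, −0.219 and −0.257 without 7 g/kg replicate 1 or 3, and −0.142 without 5 g/kg replicate 3. Without 1 array it ranged from −0.257 to 0.654. Fbp1, at −0.05, was 0.0661 with Cy5 alone and ranged from −0.121 to 0.00283 without 1 array (0.00283 without 7 g/kg replicate 2), and Foxo1, at −0.13, was 0.0522 with Cy5 alone. Pdk4 at 7 g/kg passed with an offset of 16 (0.62), the scanner ratio (0.80), the series table (0.80) and only those 2 groups in the fit (0.45).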
